A study of Homo sapiens with 7 samples.

Results

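The 10 genes described here write, read or remove methylation of DNA and of lysine 27 of histone H3 (H3K27), and their RNA was followed across K562 cells that had become resistant to dasatinib. They were taken by name from the deposited table of counts, through the NCBI gene ID of each row, and all 10 of 10 were found among its 25702 gene IDs. They are DNMT1 and UHRF1, DNMT3A and DNMT3B, TET1, TET2 and TET3, EZH1 and EZH2, and KDM6B.

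RNA was sequenced from 7 lines of K562, which was established from a chronic myeloid leukemia, expresses the fusion kinase BCR::ABL1 and has erythroid features. The controls were the drug naive line and a line kept in the DMSO vehicle (n = 2), and the K562 DasR lines had been taken from a culture exposed to rising doses of dasatinib, an inhibitor of that kinase. Lines at 10, 15 and 25 nM are called early stage (n = 3) and those at 50 and 200 nM late stage (n = 2), a division the study made after clustering these same libraries, so all 5 DasR lines were also set against the controls without it. Each line gave 1 library, with a total count of 21007761 (drug naive), 24037893 (DMSO), 27808639 (10 nM), 27844799 (15 nM), 20059656 (25 nM), 20827519 (50 nM) or 21588772 (200 nM). The lines have no repeat library and the DasR lines are successive steps of dose escalation, so the p-values measure the spread between lines of a group, dose included. The early and late stage comparisons share both controls and are not independent of each other. Each library is bulk RNA, in which fewer cells expressing a gene and less RNA of that gene per cell cannot be told apart.

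DNA methylation at CpG sites is placed on unmethylated DNA by the de novo enzymes DNMT3A and DNMT3B and copied to the daughter strand after replication by DNMT1, which UHRF1 brings to hemimethylated sites. The TET dioxygenases oxidize the methyl group, a step towards its removal. H3K27 is methylated by Polycomb repressive complex 2 (PRC2), whose catalytic subunit is EZH2 or its paralog EZH1, and KDM6B (also called JMJD3) removes the mark. DNMT3A, TET2 and EZH2 are recurrently mutated in myeloid disease. The counts measure the RNA of these enzymes, while their activity and the marks themselves were not measured in these files.

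Between the controls and the resistant lines, KDM6B RNA fell and DNMT3A RNA rose, each in both stages and in all 5 DasR lines together, and TET1 fell in the early stage lines. The TET1 call was lost with a filter at 1 CPM and without any 1 of the early stage lines. The late stage call of DNMT3A was also lost without any 1 of those lines. Each call of KDM6B, DNMT3A and TET1 was lost in 1 or more fits that left out a line, as given below for each gene. KDM6B went from a mean of 117 CPM (counts scaled by library total in the usual way) in controls to 51.0 in early and 51.8 in late stage lines, a ratio of 0.434 and 0.442. DNMT3A went from 20.6 CPM to 38.0 and 39.1, a ratio of 1.85 and 1.90. EZH2, the member with the highest level per kilobase in every line, did not pass the test in any comparison.

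The sequence before the annotated start is shown for the 3 members that passed the test in at least 1 comparison and for TET3, which missed the threshold in the early stage lines by the least. Each run is the 250 bases before the start that lies furthest upstream, 5′ to 3′ on the strand of the gene, from RefSeq on build GRCh38.p14, with CpG dinucleotides, the sites that the DNMT enzymes methylate, in capitals. The windows lie at chr17:7833967-7834216 (+) for KDM6B, chr2:25342591-25342840 (-) for DNMT3A, chr10:68560087-68560336 (+) for TET1 and chr2:73984660-73984909 (+) for TET3.
KDM6B: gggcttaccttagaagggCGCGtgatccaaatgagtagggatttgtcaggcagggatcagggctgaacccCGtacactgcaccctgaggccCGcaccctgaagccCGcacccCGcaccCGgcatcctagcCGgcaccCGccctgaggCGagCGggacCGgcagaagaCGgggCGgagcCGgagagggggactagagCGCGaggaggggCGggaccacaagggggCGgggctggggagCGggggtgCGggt
DNMT3A: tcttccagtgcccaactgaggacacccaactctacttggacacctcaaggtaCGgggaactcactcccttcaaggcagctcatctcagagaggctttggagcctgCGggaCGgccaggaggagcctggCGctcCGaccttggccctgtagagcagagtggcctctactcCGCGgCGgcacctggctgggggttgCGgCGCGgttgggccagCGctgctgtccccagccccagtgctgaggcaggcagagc
TET1: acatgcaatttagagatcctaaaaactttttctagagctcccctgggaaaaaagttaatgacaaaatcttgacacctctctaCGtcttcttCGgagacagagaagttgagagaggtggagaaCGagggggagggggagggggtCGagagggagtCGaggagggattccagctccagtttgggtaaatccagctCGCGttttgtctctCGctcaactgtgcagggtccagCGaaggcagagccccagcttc
TET3: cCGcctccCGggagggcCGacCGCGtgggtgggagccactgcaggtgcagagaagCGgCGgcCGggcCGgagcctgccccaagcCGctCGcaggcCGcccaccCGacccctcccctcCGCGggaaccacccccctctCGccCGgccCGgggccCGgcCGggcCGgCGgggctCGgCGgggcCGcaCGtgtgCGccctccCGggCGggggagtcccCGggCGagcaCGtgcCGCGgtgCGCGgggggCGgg

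The KDM6B window holds 21 CpG sites, the DNMT3A window 12 and the TET1 window 9, where the median over 34788 annotated windows of the same length is 11. The TET3 window holds 37, and 96.0% of all windows hold fewer. RefSeq lists 2 starts for KDM6B, 6 for DNMT3A, 3 for TET1 and 2 for TET3, and counts per gene do not tell which of them the lines use. Both strands were searched for 6 short motifs, and among these 4 windows only TET3 has a match, with the MYC E-box CACGTG at 67 and at 27 bases before the start, a motif that 6.31% of all windows hold. No match was found in the 4 windows for the E2F motifs TTTGGCGC (0.549% of windows) and TTTCCCGC (1.39%), the STAT5 motif TTCNNNGAA (6.57%), the GATA1 motif AGATAA (9.21%) or the ETS motif CCGGAAGT (3.41%). None of the 6 motifs contains another, and a match or its absence says nothing of whether a factor is bound.

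**Figure D1:**
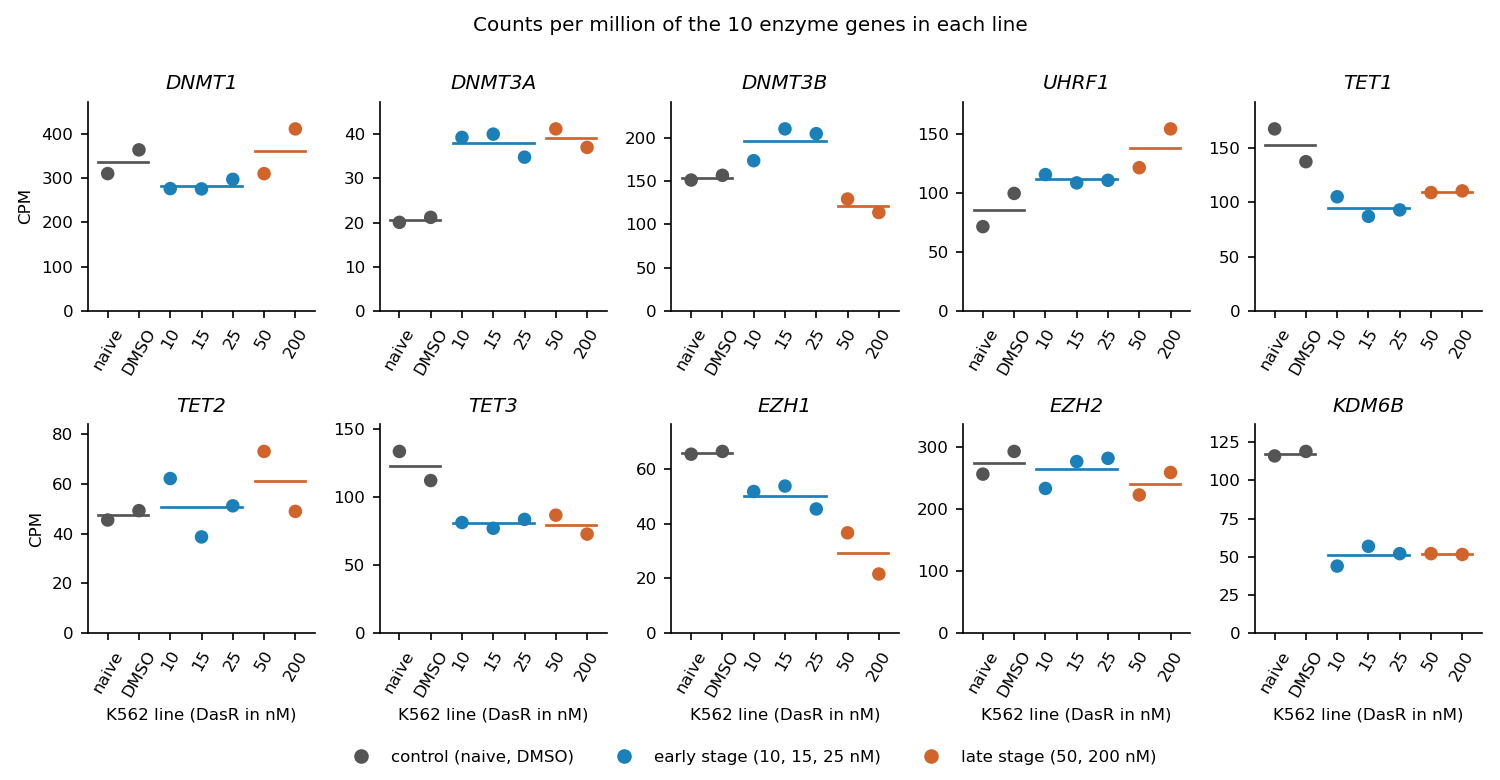
CPM of each of the 10 genes (y axes from 0, a scale of its own in each panel) in the 7 K562 lines, with 1 point for each library, the DasR dose in nM on the x axis and a horizontal bar at the mean of each group. KDM6B lies between 44.0 and 56.9 CPM in the DasR lines against 116 and 119 in the controls, and DNMT3A between 34.8 and 41.2 against 20.0 and 21.2.

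DNMT1 (chr19:10244018-10341962, minus strand, hg19), the maintenance enzyme, had 310 CPM in the drug naive and 364 in the DMSO line, 276, 276 and 297 CPM in the 10, 15 and 25 nM DasR lines, and 310 and 411 CPM in the 50 and 200 nM DasR lines. The early stage lines were all below the controls, the 50 nM line was level with the drug naive line, and the 200 nM line was the highest of all. The log2 fold change was -0.27 (SE 0.13) in early stage lines, with an FDR of 0.123, and 0.08 (SE 0.14) in late stage lines, with an FDR of 0.697, by the quasi-likelihood test of edgeR, adjusted after Benjamini and Hochberg over the 10452 genes tested. Neither passed 0.005, the threshold of the study, which is used for every call here. The late stage lines were above the early stage lines by 0.34 (SE 0.13), with an FDR of 0.112 by edgeR, or by 0.52 without the 50 nM line and 0.14 without the 200 nM line. In the annotation 83 bases, or 0.540% of the exon bases of DNMT1, overlap S1PR2 on the same strand, a gene at no more than 13.7 CPM in any line.

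UHRF1 (chr19:4903092-4962165, plus strand), the partner that recruits DNMT1, had 71.3 CPM in the drug naive and 99.3 in the DMSO line, 115, 108 and 110 CPM in the early stage lines, and 121 and 154 CPM in the late stage lines. Every DasR line was above both controls and both late stage lines were above every early stage line, yet the controls differed from each other by more than the early stage lines did from the DMSO line. The log2 fold change was 0.37 (SE 0.15, edgeR FDR 0.0767) in early and 0.67 (SE 0.16, edgeR FDR 0.0192) in late stage lines, neither past the threshold. The early stage value was 0.16 without the drug naive line and 0.58 without the DMSO line. DESeq2 passed UHRF1 in late against control at an FDR of 0.000763. DMSO exceeded drug naive 1.39-fold (95% interval 1.31 to 1.49, which covers counting error only), and 10.4% of the genes tested differed more between these controls.

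Per kilobase of the exon length the authors give, DNMT1 exceeded UHRF1 by 3.40 and 2.86 times in the drug naive and DMSO lines and by 1.87, 1.99, 2.10, 2.00 and 2.09 times in the lines from 10 to 200 nM. The ratio was thus lower in all 5 DasR lines than in either control, with little spread among them. No test was run on ratios between members, which are given as descriptions.

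DNMT3A (chr2:25450724-25565459, minus strand) had 20.0 and 21.2 CPM in the drug naive and DMSO lines, 39.3, 40.0 and 34.8 CPM in the early stage lines, and 41.2 and 37.0 CPM in the late stage lines. The controls lay close together and every DasR line was well above them, with early and late stage lines overlapping. DNMT3A rose by 0.87 (log2, SE 0.11, edgeR FDR 0.00133) in early and by 0.90 (SE 0.12, edgeR FDR 0.00258) in late stage lines, and over all 5 DasR lines by 0.88 (SE 0.10, edgeR FDR 0.00163). Between late and early stage lines the difference was 0.03, with a 95% interval from -0.22 to 0.29. In the early stage comparison the call was lost without the drug naive line (edgeR FDR 0.0163), the DMSO line (0.0114) or the 15 nM line (0.00517), with a log2 fold change of at least 0.84 in each fit that left out a line, and in the late stage comparison it was lost without any 1 of the 7 lines, with an FDR between 0.00502 and 0.0238. Over all DasR lines it was lost in 5 of these 7 fits, held without the 15 nM (edgeR FDR 0.00462) or 200 nM line (0.00156), and reached 0.0263 without the drug naive line.

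DNMT3B (chr20:31350191-31397165, plus strand), the other de novo enzyme, had 151 and 157 CPM in the drug naive and DMSO lines, 174, 211 and 205 CPM in the early stage lines, and 129 and 114 CPM in the late stage lines. The 3 groups did not overlap, with the early stage lines above and the late stage lines below the controls. Neither difference from the controls passed the threshold, at 0.33 (log2, SE 0.11, edgeR FDR 0.0416) for early and -0.36 (SE 0.12, edgeR FDR 0.0538) for late stage lines. The difference of late from early stage lines was -0.70 (SE 0.11), and its edgeR FDR of 0.0179 was the lowest of the 10 members in that comparison, in which no gene of the 10452 passed (lowest FDR 0.0167).

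The de novo enzymes were expressed unequally, with DNMT3B 9.20 and 9.02 times as high as DNMT3A per kilobase in the drug naive and DMSO lines. The ratio was 5.39, 6.41 and 7.18 in the 10, 15 and 25 nM lines and 3.83 and 3.74 in the 50 and 200 nM lines. The groups did not overlap in this ratio, and DNMT3B stayed the more abundant of the pair in every line. The sum of DNMT1, DNMT3A and DNMT3B was 99.4 ± 8.0 CPM per kilobase (SD, n = 2) in controls, 102 ± 5.22 (SD, n = 3) in early and 100 ± 10.3 (SD, n = 2) in late stage lines, so the group means lay within the spread of the lines.

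**Figure D2:**
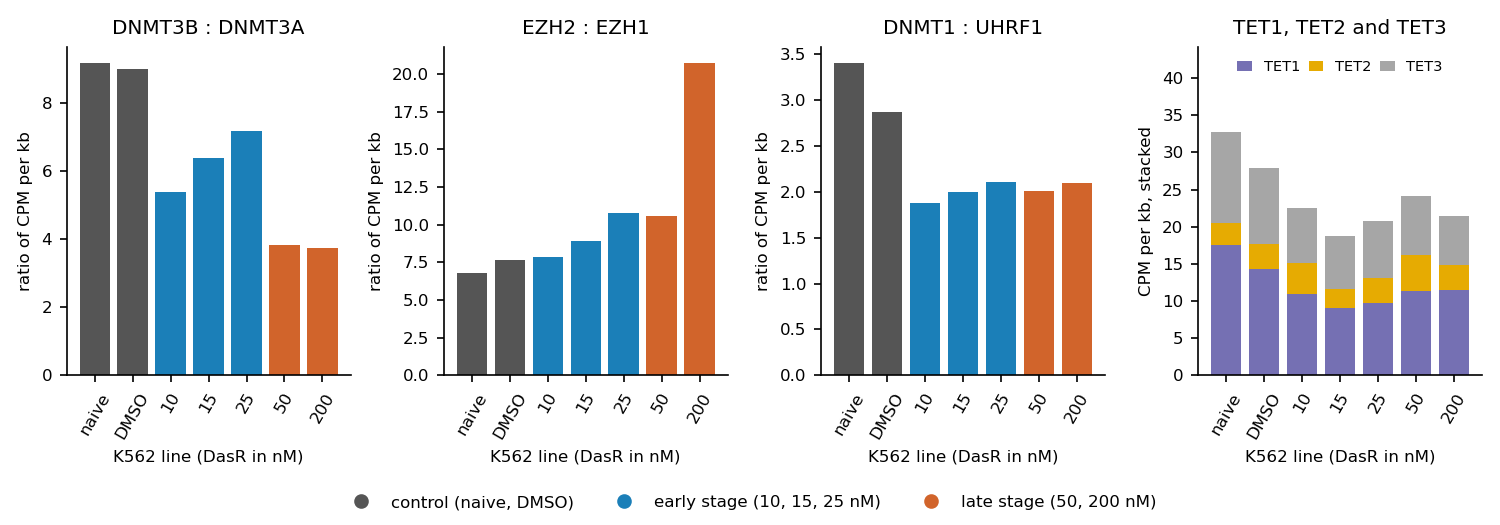
Ratios of CPM per kilobase between paired members (the 3 panels on the left) and the stacked CPM per kilobase of TET1, TET2 and TET3 (right) in each of the 7 K562 lines, with 1 bar for each library, bars from 0 and DasR doses in nM on the x axis. DNMT3B to DNMT3A goes from 9.20 in the drug naive line to 3.74 at 200 nM, and EZH2 to EZH1 from 6.81 to 20.8.

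TET1 (chr10:70320094-70454244, plus strand) had 168 CPM in the drug naive and 138 in the DMSO line, 105, 87.2 and 93.1 CPM in the early stage lines, and 109 and 111 CPM in the late stage lines. All DasR lines were below both controls, and both late stage lines were above all early stage lines. TET1 fell by 0.70 on the log2 scale (SE 0.13, edgeR FDR 0.00466) in early stage lines, while the late stage value of -0.50 (SE 0.14, edgeR FDR 0.0322) and that over all DasR lines of -0.62 (SE 0.13, edgeR FDR 0.0129) did not pass. The early stage call lay close to the threshold and was lost without any 1 of the 7 lines, with an edgeR FDR between 0.00643 and 0.0345. The late stage value was -0.33 without the drug naive line and -0.68 without the DMSO line.

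TET3 (chr2:74212037-74335303, plus strand) had 134 and 112 CPM in the drug naive and DMSO lines, 81.5, 77.2 and 83.8 CPM in the early stage lines, and 86.9 and 73.0 CPM in the late stage lines. As for TET1, every DasR line was below both controls, here with early and late stage lines overlapping. The log2 fold change was -0.62 (SE 0.12) in early stage lines, at an edgeR FDR of 0.00634 just above the threshold, and -0.65 (SE 0.14, edgeR FDR 0.0124) in late stage lines. With DESeq2 in place of edgeR TET3 passed in both, at an FDR of 7.44e-05 and 0.000328. Of the exon bases of TET3, 390 (3.01%) overlap a long noncoding RNA on the same strand that has no row of its own in the counts.

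TET2 (chr4:106067032-106200973, plus strand), the TET gene most often mutated in myeloid disease, had 45.4 and 49.2 CPM in the drug naive and DMSO lines, 62.0, 38.6 and 51.1 CPM in the early stage lines, and 72.9 and 48.9 CPM in the late stage lines. The groups overlapped, and the lines of each stage spread widely, with the 15 nM line at 0.623 of the 10 nM line (95% counting interval 0.577 to 0.673) and the 200 nM line at 0.670 of the 50 nM line (0.619 to 0.726). The log2 fold change was 0.08 with a 95% interval from -0.46 to 0.63 in early stage lines (edgeR FDR 0.789) and 0.34 with an interval from -0.25 to 0.94 in late stage lines (edgeR FDR 0.326). The late stage value was 0.02 without the 50 nM line and 0.61 without the 200 nM line.

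Summed per kilobase, the 3 TET genes gave 32.7 and 27.9 in the drug naive and DMSO lines, 22.5, 18.7 and 20.8 in the early stage lines and 24.2 and 21.4 in the late stage lines. All DasR lines were below the controls in this sum. TET2 made up 9.25% and 11.8% of it in the controls and 18.3%, 13.8%, 16.4%, 20.1% and 15.2% in the lines from 10 to 200 nM, a larger share in every DasR line than in either control, while TET2 itself did not pass the test.

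EZH2 (chr7:148504349-148581413, minus strand), the main H3K27 methyltransferase of dividing cells, had 257 and 294 CPM in the drug naive and DMSO lines, 234, 277 and 282 CPM in the early stage lines, and 223 and 260 CPM in the late stage lines. The groups overlapped in each comparison, and the highest line was 1.31 times the lowest, the narrowest range of the 10 members. The log2 fold change was -0.07 with a 95% interval from -0.34 to 0.19 (edgeR FDR 0.628) in early stage lines and -0.21 with an interval from -0.50 to 0.08 (edgeR FDR 0.227) in late stage lines, the latter -0.11 without the 50 nM line and -0.31 without the 200 nM line.

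EZH1 (chr17:40852293-40897067, minus strand), its paralog, had 65.3 and 66.3 CPM in the drug naive and DMSO lines, 51.7, 53.7 and 45.3 CPM in the early stage lines, and 36.6 and 21.6 CPM in the late stage lines. The groups stood apart in that order, with no overlap, and the 200 nM line was the lowest, at 0.590 of the 50 nM line (95% counting interval 0.525 to 0.663). The difference from the controls was -0.40 (log2, SE 0.20, edgeR FDR 0.141) in early and -1.19 (SE 0.23, edgeR FDR 0.00878) in late stage lines, and that of late from early stage lines was -0.79 (SE 0.21, edgeR FDR 0.0518), none past the threshold. The late stage value depended on the line left out, at -1.63 without the 50 nM line (edgeR FDR 0.00273, past the threshold) and -0.85 without the 200 nM line (edgeR FDR 0.00923). Late against early likewise went to -1.23 without the 50 nM line (edgeR FDR 0.00432, past the threshold) and -0.45 without the 200 nM line (edgeR FDR 0.142). DESeq2 passed EZH1 in late against control at an FDR of 6.25e-06 and in late against early at 0.00307.

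The balance of the PRC2 catalytic subunits per kilobase was 6.81 and 7.66 EZH2 to 1 EZH1 in the drug naive and DMSO lines, 7.83, 8.94 and 10.8 in the early stage lines, and 10.5 and 20.8 in the late stage lines. All DasR lines were above both controls in this ratio, and the 200 nM line stood far above the rest. EZH1 made up 12.2% ± 0.891 (SD, n = 2) of the sum of both in controls, 9.96% ± 1.42 (SD, n = 3) in early and 6.63% ± 2.87 (SD, n = 2) in late stage lines.

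KDM6B (chr17:7737535-7758114, plus strand), the H3K27 demethylase, had 116 and 119 CPM in the drug naive and DMSO lines, 44.0, 56.9 and 52.1 CPM in the early stage lines, and 52.1 and 51.6 CPM in the late stage lines. The controls lay close together, all 5 DasR lines were less abundant than either by a wide margin, and early and late stage lines overlapped. KDM6B fell by 1.22 on the log2 scale (SE 0.11, edgeR FDR 0.000432) in early stage lines, by 1.20 (SE 0.13, edgeR FDR 0.00126) in late stage lines and by 1.21 (SE 0.10, edgeR FDR 0.000536) over all DasR lines. By its p-value it ranked 209th of 10452 genes in the early stage, 180th in the late stage and 67th in the comparison of all DasR lines. The early stage call was lost without the drug naive line (edgeR FDR 0.00567) and held in the other 6 fits that left out a line. The late stage call was lost without the drug naive (edgeR FDR 0.0117), DMSO (0.00753), 50 nM (0.00603) or 200 nM (0.00640) line, with a log2 fold change between -1.23 and -1.18 in all 7 of these fits. Over all DasR lines it was lost without the drug naive (edgeR FDR 0.0116) or DMSO (0.00712) line. Late and early stage lines differed by 0.02, with a 95% interval from -0.25 to 0.28.

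**Figure D3:**
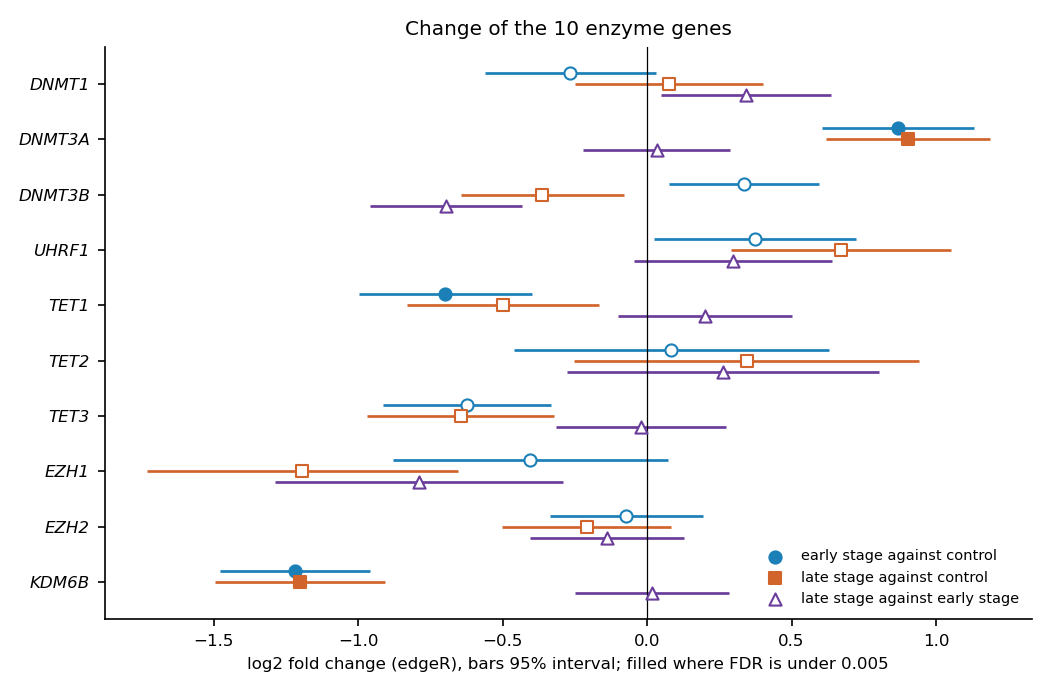
Log2 fold change (x axis) of each of the 10 genes (y axis) by edgeR in 3 comparisons, early stage against control (circles), late stage against control (squares) and late against early stage (triangles), with 95% intervals as bars and filled symbols where the FDR is under 0.005. Filled symbols are those of KDM6B and DNMT3A in both comparisons with the controls and of TET1 in early stage lines, and no triangle is filled.

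Counted over the members, 3 of 10 passed in early stage lines (DNMT3A higher, KDM6B and TET1 lower), where 18.0% of the 10452 genes tested passed, with 7.92% higher and 10.1% lower. In late stage lines 2 of 10 passed (DNMT3A higher, KDM6B lower), against 7.98% of all genes, with 3.42% higher and 4.56% lower. Over all DasR lines the same 2 members passed, against 8.08% of all genes (3.30% higher and 4.78% lower), and between late and early stage lines none passed, against 0.00%. In that last comparison 3 members and 3450 of all genes had an unadjusted p under 0.05, limma voom called 0 genes and DESeq2 called 1135, DNMT3B and EZH1 among them. Lines of the compared groups did not overlap for 8 of the 10 members in early against control, for 7 in late against control, for 5 in late against early and for 6 in all DasR against control, where the shares of all genes were 69.8%, 67.7%, 53.3% and 48.8%. With 10 members, counts of 3 and 2 calls lie about 1 gene above these shares, and a share near the background is not a result about the members as a group. The median log2 fold change of the 10 was -0.17 in early and -0.29 in late stage lines, beside 0.00 and 0.00 over all genes tested.

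The order of levels per kilobase was the same at both ends in all lines and varied between. EZH2 had rank 1, at 83.2 to 109 CPM per kilobase, DNMT1 rank 2, at 51.0 to 76.2, and TET2 rank 10, at 2.58 to 4.86. Those ranks were equal in all 7 lines and no others were. KDM6B had rank 5 in both controls, at 17.3 and 17.7 CPM per kilobase, and ranks 6 to 9 in the DasR lines, at 6.56 to 8.49. UHRF1 had rank 6 in the drug naive line, rank 4 in the DMSO and early stage lines and rank 3 in the late stage lines. EZH1 had rank 7 in the controls, at 14.0 and 14.3 CPM per kilobase, and rank 5 in the early stage lines, at 9.75 to 11.5. Its level was thus lower in the early stage lines although it stood higher in the order. It had rank 7 at 50 nM, at 7.89, and rank 9 at 200 nM, at 4.66.

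For each member that passed in at least 1 comparison, the genes with the most similar course over the 7 lines were found by the root mean square difference of centred log2 CPM among the other 10451 genes. Nearest to KDM6B were USP3 (0.1000), NUB1 and GDF15, and GDF15, a stress-induced cytokine, had 117 and 112 CPM in the controls and 44.0 to 62.3 in the DasR lines. Nearest to DNMT3A were ALDH1B1 (0.0671), PHF23 and ZNF343, and nearest to TET1 were AGO4 (0.0489), CCNI and ZMIZ1. The points share libraries and the large step between controls and DasR lines, and the likeness is given as a description.

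The partners of the DNA methylation enzymes were read from lists by function. Among 15 tested cofactor and maintenance genes 2 rose and 2 fell in early stage lines, and 1 rose and 1 fell in late stage lines, with a median log2 fold change of -0.06 and -0.13. That is 26.7% and 13.3% of the list, beside 18.0% and 7.98% of all genes tested, about 1 gene more in each. PCNA, the replication clamp that binds DNMT1, had 84.5 and 98.1 CPM in controls and 166 to 224 CPM in DasR lines, and rose by 1.24 (edgeR FDR 0.000243) and 0.94 (edgeR FDR 0.00141). TRIM28, a corepressor, rose by 0.45 in early stage lines (edgeR FDR 0.00480, or 0.00579 and not past the threshold with a filter at 1 CPM). SHMT2, a mitochondrial enzyme that supplies one-carbon units, fell by 1.07 (edgeR FDR 0.000182) and 0.67 (edgeR FDR 0.00221). DNMT3L, the cofactor of the de novo enzymes, was not tested, with 3 counts in the drug naive line, 1 at 50 nM and 0 in the other lines, DMSO included. None of 10 methyl-CpG readers passed, with medians of 0.22 in both stages, and MBD1 (0.45, edgeR FDR 0.00677) and MBD2 (0.53, edgeR FDR 0.0267) had the smallest p-values in early and in late stage lines.

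Of 10 tested genes for oxidation and removal of DNA methylation, 1 rose and 3 fell in early stage lines and 2 fell in late stage lines (40.0% and 20.0% of the list, beside 18.0% and 7.98% of all genes tested), with medians of -0.24 and -0.33. IDH1, which makes the 2-oxoglutarate that TET and KDM6 enzymes use as a cosubstrate, had 358 and 319 CPM in controls, 66.3, 58.9 and 62.2 CPM in early and 90.8 and 113 CPM in late stage lines. It fell by 2.45 (SE 0.12, edgeR FDR 7.76e-05) and by 1.75 (SE 0.14, edgeR FDR 0.000612). OGT, the glycosyltransferase that binds TET proteins, fell from 942 and 1000 CPM to between 437 and 455 CPM, by 1.12 (edgeR FDR 0.000139) and 1.17 (edgeR FDR 0.000442). IDH2, the mitochondrial counterpart of IDH1, fell in early stage lines by 1.61 (edgeR FDR 0.00154), and CXXC5, which binds unmethylated CpG, rose by 0.49 (edgeR FDR 0.00306).

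Of 10 tested subunits of PRC2 other than EZH1 and EZH2, SUZ12 and PHF1 fell in early stage lines, by 0.75 (edgeR FDR 0.00202) and 0.62 (edgeR FDR 0.00372), and none passed in late stage lines, with medians of -0.05 and 0.00. SUZ12, a core subunit, had 161 and 196 CPM in controls, 99.1 to 112 in early and 122 and 138 in late stage lines, while EED, the other core partner, lay between 43.3 and 54.0 CPM in all lines. Among 23 genes of PRC1 and its deubiquitinase 1 rose (CBX2, 0.93) and 3 fell in early stage lines (among them RYBP by 1.18 and PCGF3 by 0.56), and 3 fell in late stage lines (among them ASXL1 by 0.95 and PCGF3 by 0.65), with medians of 0.01 and -0.03, so that 17.4% and 13.0% of that list passed. Beside 18.0% and 7.98% of all genes tested, the early stage counts of PRC2 (20.0%) and PRC1 are near the background. In the PRC1 list, PCGF1 and PCGF2 reached 10 CPM only in the controls, so the filter admitted them through the group where they are high. Neither passed the threshold in either stage. None of 12 enzymes and partners that oppose H3K27 methylation passed in either stage, with medians of 0.14 and -0.07, WDR5 (0.34, edgeR FDR 0.0140) and ASH2L (-0.48, edgeR FDR 0.0120) having the smallest p-values. KDM6A, the other H3K27 demethylase in the list, had 80.1 and 86.0 CPM in controls and 73.8 to 114 in DasR lines, with 0.39 (edgeR FDR 0.0650) in early and 0.08 (edgeR FDR 0.736) in late stage lines.

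**Figure D4:**
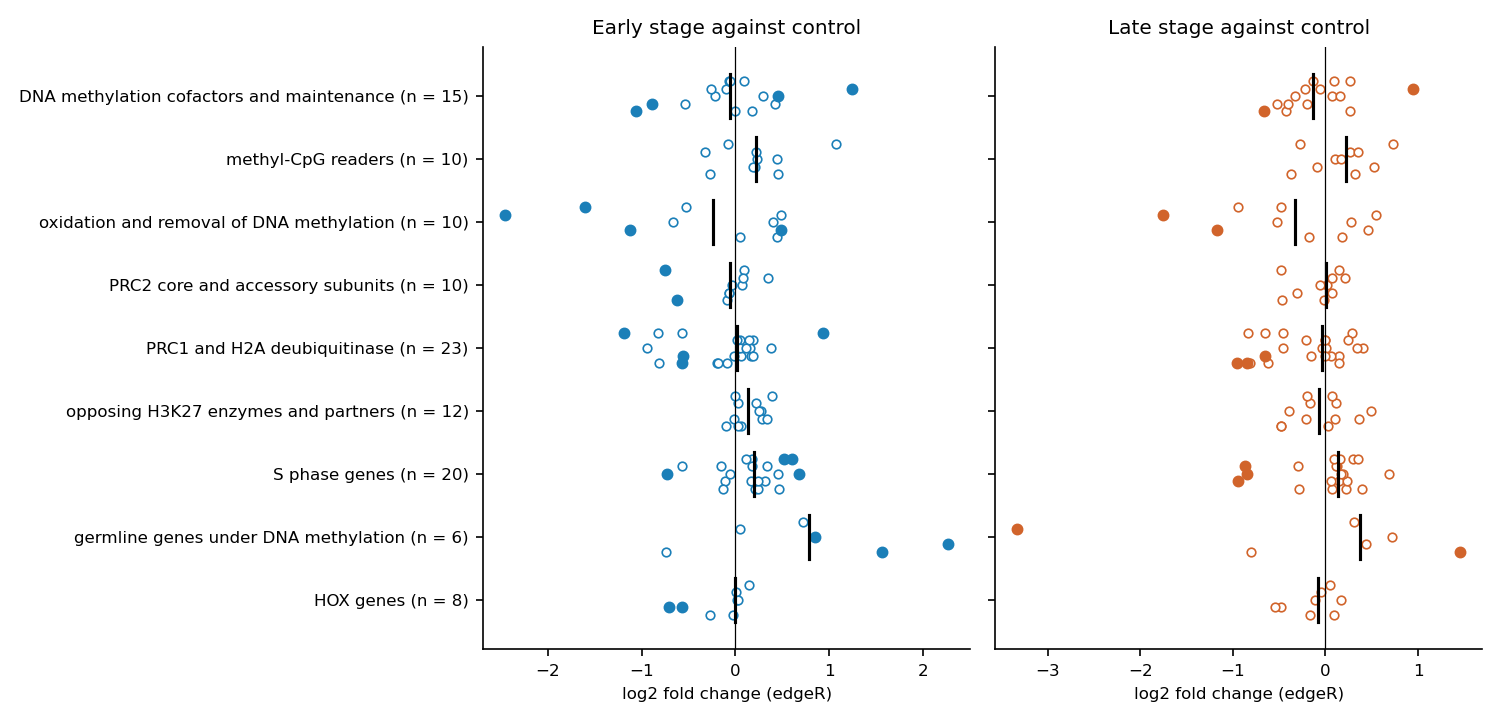
Log2 fold change by edgeR (x axis) of the tested genes of 9 partner and target lists (y axis, with the number tested) in early and in late stage lines against control, 1 circle for each gene, filled where the FDR is under 0.005, with a vertical bar at the median of each list. IDH1 is the lowest filled circle on the left at -2.45, and the medians of the PRC2, PRC1 and HOX lists lie within 0.08 of 0 in both panels.

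Genes known to be silenced by these marks were counted too. Of 18 germline genes 6 were tested, and 3 rose in early stage lines (MAGEA1 by 2.27, TEX15 by 1.56 and MAGEA3 by 0.85), while TEX15 rose by 1.45 and MAGEB2 fell by 3.33 in late stage lines. GAGE1, the most abundant of the list on average, had 229 and 333 CPM in controls and 160 to 185 CPM in DasR lines. Its log2 fold change was -0.74 (edgeR FDR 0.00581) in early and -0.80 (edgeR FDR 0.00998) in late stage lines, neither past the threshold. MAGEA1 had 14.3 and 16.0 CPM in controls, 54.7, 83.7 and 82.9 CPM in early and 26.4 and 15.2 CPM in late stage lines, and DDX4 had no count in any line. MAGE genes have near-identical copies, so that reads may be split between them and their values are uncertain. Of 39 HOX genes, classical targets of Polycomb, 8 were tested, and HOXB3 and HOXB9 fell in early stage lines, by 0.71 (edgeR FDR 0.00212) and 0.57 (edgeR FDR 0.00216), with none past the threshold in late stage lines. The median log2 fold change was 0.79 and 0.37 for the germline genes and -0.01 and -0.08 for the HOX genes, over the few that passed the filter on low counts. Of the genes tested, 50.0% and 33.3% of the germline list and 25.0% and 0% of the HOX list passed, beside 18.0% and 7.98% of all genes, and silent genes enter these shares only where some lines express them. With the filter at 1 CPM in place of 10 CPM, 12 germline genes were tested, their medians were 0.45 and 0.17, and TEX15 no longer passed in late stage lines (edgeR FDR 0.00506). Of the genes this filter adds, CTAG1B and RPL10L reached 1 CPM only in DasR lines and MAEL only in controls. These medians thus depend in part on the group that admits a gene. HOXC13, below the 10 CPM filter, had 0.190 and 0.416 CPM in controls, 4.85, 6.97 and 5.73 CPM in early and 1.97 and 1.53 CPM in late stage lines, low levels at which every DasR line was above both controls. It reached 1 CPM only in the DasR lines, so that a filter at 1 CPM would admit it through the group where it is high, and these values are given with no test.

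DNMT1, UHRF1 and EZH2 are most abundant in dividing cells, so 20 genes of S phase were set beside them. Of these 3 rose (FEN1 by 0.68, GINS2 by 0.60 and TYMS by 0.52) and CDC6 fell by 0.73 in early stage lines, and 3 fell in late stage lines (CDT1 by 0.86, CDC6 by 0.85 and E2F1 by 0.94), with medians of 0.19 and 0.14. The calls came to 20.0% and 15.0% of the list, beside 18.0% and 7.98% of all genes tested, so the early stage count is near the background. Their summed level was 2923 and 3435 CPM in the drug naive and DMSO lines, 3351, 3615 and 3555 CPM in early and 3127 and 3339 CPM in late stage lines. The part of the cell cycle in the values of the members was not tested. Each line was also left out in turn. Among the partner and marker genes, PCNA, SHMT2, OGT, IDH1 and TFRC held their early stage call in all 7 fits. OGT held its late stage call in all 7 and IDH1 in 6, all but the fit without the drug naive line. Every other such call held in at most 4 of 7, with its direction kept. Those of TRIM28 and GINS2 in early stage lines and of PCGF3, CDC6 and TFRC in late stage lines held in 0 of 7.

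K562 is labelled an erythroblast line. All 9 erythroid markers passed the filter on low counts, and their sum was 3821 and 3218 CPM in the drug naive and DMSO lines, 9629, 10973 and 8185 CPM in early and 5625 and 4441 CPM in late stage lines. TFRC, the transferrin receptor, rose by 1.13 (edgeR FDR 0.000677) and 0.85 (edgeR FDR 0.00373), HBG1, a fetal globin with a near-identical copy, rose by 1.24 in early stage lines (edgeR FDR 0.00240), and the other 7 did not pass in early stage lines (median of the list 1.17). The late stage call of TFRC held in none of the fits that left out a line, where its value lay between 0.67 and 1.02. The calls came to 22.2% and 11.1% of the list, beside 18.0% and 7.98% of all genes tested. The late stage median of the list was 0.36. HBG2 was the most abundant on average, at a mean of 1727 CPM. HBZ, the embryonic zeta globin, had 59.5 and 74.3 CPM in controls, 1865, 2856 and 1917 CPM in early and 659 and 60.03 CPM in late stage lines. It was below HBG2 at 10 nM, above it at 15 nM and level with it at 25 nM, and at 200 nM it lay between the controls. Its log2 fold change in early stage lines, 5.03 (SE 0.98, edgeR FDR 0.00604), missed the threshold. The 10 markers of T cells, B cells, monocytes, fibroblasts and epithelium summed to 146 and 153 CPM in the drug naive and DMSO lines, 186, 98.5 and 120 CPM in early and 181 and 190 CPM in late stage lines, mostly from LYZ and EPCAM. Of these 3 were tested and none passed. COL1A2, below the filter, had 2.00 and 14.3 CPM in the drug naive and DMSO lines and at most 0.432 CPM in the DasR lines, while MS4A1 and CDH1 had no more than 1 count in any line. The part of the erythroid markers, or of other cells, in the values of the members was not tested.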

How the data were processed

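RNA of 7 K562 lines had been sequenced by the authors, 1 library per line. Per the labels, libraries came from a directional kit, and the RNA is given both as polyA RNA and as depleted of ribosomal and non-coding RNA, so that the selection used is not settled. Alignment by the authors was to hg19 with STAR, and their processing notes name FastQC, featureCounts and edgeR. The deposited table holds raw counts of reads per gene for 25702 gene IDs. The strand setting of the counting is not given in the sources used here. Other deposited tables hold the authors' comparisons (mean log2 CPM, fold changes, FDR and p-values), of which the gene symbols and, for levels per kilobase, the length in bases that the authors give for each gene were used and no other column, and 0 columns of per-sample values were left unused.

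Symbols from these tables and from a table of gene names matched 23738 IDs. The members and lists were chosen with earlier results of these data known. A gene was tested if 2 or more libraries had 10 CPM or more (10452 genes, all 10 members among them). TMM factors were used, and the test was the quasi-likelihood test of edgeR 4.0.16 (glmQLFit, glmQLFTest) in R 4.3.3, fitted to all 7 libraries in 3 groups or, for all DasR lines, in 2 groups. The Benjamini-Hochberg FDR was taken over all genes tested, with a threshold of 0.005. CPM used library totals. The common dispersion of 0.026 corresponds to a coefficient of variation of 0.161 between lines. Libraries of a group differed by more than sampling noise (chi-square per degree of freedom from 14.5 to 45). From each list, up to 4 genes past the threshold (up to 2 in each direction, by p-value) were named, or the gene with the smallest p-value where none passed. DNMT3L, IDH2, EED, KDM6A, TYMS, E2F1, MAGEA3, DDX4, HBG2, HBZ, HOXC13, COL1A2, LYZ, MS4A1 and CDH1, and PCGF3 in late stage lines, were named after their values were seen, and some genes that the rule would name are not reported here. Gene positions and exon overlaps came from a GENCODE annotation of GRCh37 (hg19). Windows before starts came from RefSeq on GRCh38.p14 and were matched by symbol for 10 of 10 members. Alternatives were DESeq2 1.42.0, limma voom 3.58.1, other scalings, filters and thresholds, only the libraries compared, and each library left out in turn. Counting intervals are 95% and cover counting error only.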

Additional observations from a re-analysis of the deposited data

Results flagged for a closer look

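DNMT1 and UHRF1 in the 200 nM line stood apart from the other 4 DasR lines. DNMT1 had 411 CPM there, and the gap to the next line was 0.746 of the range of the 5 lines. UHRF1 had 154 CPM, with a gap of 0.719 of the range. Both exceed by little the 95% limit of Dixon's test for 5 values, 0.71, which chance passes in about 1 of 20 groups of independent values. The 5 lines are successive steps of dose escalation, with 200 nM the highest dose, so that rate need not hold here. DNMT3B differed between the stages, with early stage lines at 0.33 and late stage lines at -0.36 on the log2 scale relative to the same controls. The difference of late from early was -0.70, with an edgeR quasi-likelihood FDR of 0.0179 after Benjamini-Hochberg adjustment, which misses 0.005.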

How the results depend on the processing

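Over the 15 alternatives (14 for all DasR against control, which uses all libraries in any case) no member changed direction against its main value where that value had passed the test. With DESeq2 the calls were 4 members and 3548 genes in early against control, 5 members and 2503 genes in late against control, 2 members and 1135 genes in late against early, and 4 members and 2655 genes in all DasR against control. At an FDR of 0.05 they were 5 members and 4865 genes, 6 and 3542, 1 and 1328, and 4 and 3386 in the same order. Without a filter beyond 1 count, late against control called 1287 genes and late against early 295. With only the libraries compared in the fit, late against control called 1 member and 257 genes, DNMT3A being lost at an edgeR FDR of 0.00952, and TET1 was lost in early stage lines at 0.00732, as it was with a filter at 1 CPM, at 0.00520. Leaving out 1 library at a time gave 0 to 2 members and 187 to 2074 genes in early against control, 0 to 1 and 30 to 601 in late against control, 0 to 1 and 0 to 200 in late against early, and 0 to 2 and 15 to 1379 in all DasR against control. Where that leaves a group with 1 line, its spread is taken to be like that of the other groups. Fewer libraries enter these fits, and any other cause was not tested.

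Values near 0 changed sign in some fits. On the log2 scale, TET3 in late against early was 0.00954 with a filter at 1 CPM and 0.0157 without a filter. With 1 line left out, early against control ranged from -0.0952 to 0.252 for TET2 and from -0.151 to 0.00662 for EZH2, both changing sign without the 10 nM line. DNMT1 in late against control ranged from -0.129 to 0.259, negative without the drug naive or the 200 nM line. In late against early the ranges were -0.0551 to 0.120 for DNMT3A (negative without the 25 or 50 nM line), -0.0668 to 0.531 for TET2 (negative without the 50 nM line), -0.163 to 0.109 for TET3 (positive without the 25 or 200 nM line) and -0.0754 to 0.0983 for KDM6B (negative without the 10 nM line). DNMT3B in all DasR against control ranged from -1.11e-05, without the 15 nM line, to 0.207.

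No paired analysis was possible because the labels give no replicate numbers and each line has 1 library. With 2 or 3 lines in a group that differ in dose, stage and dose cannot be told apart. Each member has 421 counts or more in each line. How far depth or the spread between lines limits the result of each member was not tested.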
